A study of Mus musculus with 12 samples.

Results

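Early neuroblasts of the dentate gyrus were examined in single-cell RNA libraries of postnatal day 7 (P7) mice. Cells were selected on their measured counts. Each had more than 500 genes, less than 15% mitochondrial UMIs, and at least 3 of the 8 markers Igfbpl1, Neurod1, Neurod2, Tac2, Nhlh1, Calb2, Cntn2 and Prdm8. Each also had no UMI of Eomes, Gad1 or Gad2, and at most 1 of the 8 maturity genes Gal, Nrgn, Camk2b, Grin2b, Sema5a, Thsd7a, Rbfox1 and Kitl. A UMI (unique molecular identifier) stands for 1 captured mRNA molecule. Of 24213 cells that passed the quality limits in 3 libraries, 4170 met this rule and are called gated cells.

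The libraries were a wild-type library, a Larp7f/f;nestin-Cre library and a Larp7f/f;Emx1-Cre library, with 1 library per genotype and 3 to 4 dentate gyri of littermates combined in each. The wild-type mice of this study carried the floxed Larp7 alleles without Cre. Nestin-Cre acts across the developing nervous system and Emx1-Cre in the dorsal forebrain lineage, so both drivers act on the progenitors of these neuroblasts. The title and the genotype label of the mutant libraries name opposite Cre drivers, and the titles were followed. The paper counts more nestin-Cre cells at P7 than the 6821 barcodes of the library titled Emx1-Cre, and fewer than the 7177 of the library titled nestin-Cre. With those counts only the titles can be right. Because each mutant library was set against the same wild-type library and there was no replicate, differences between genotypes are descriptions of these libraries, and intervals cover counting error only. The only replicated RNA data used were of neurospheres, cultures of neural stem and progenitor cells grown from the newborn dentate gyrus. They were sampled after 2 days of differentiation, for which the paper's methods dissociate the neurospheres and replate the cells on coated plates. There were 2 libraries of wild-type and 3 of knockout cultures, the latter labelled Larp7f/f;Emx1-Cre.

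New granule neurons of the dentate gyrus arise from radial glia-like stem cells through intermediate progenitors, which express the T-box factor Eomes (Tbr2). Their daughters leave the cell cycle, switch Eomes off and become neuroblasts, which extend neurites, migrate a short way and later form synapses. Larp7 binds and stabilises the 7SK small nuclear RNA, which together with Hexim proteins holds the elongation kinase P-TEFb in an inactive complex. Free P-TEFb phosphorylates RNA polymerase II and releases it from its pause near the promoter.

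The gate rested on transcription factors and surface or signalling proteins of young neurons. Neurod1, Neurod2 and Nhlh1 are basic helix-loop-helix (bHLH) factors, Prdm8 is a transcriptional repressor, Tac2 encodes neurokinin B, Calb2 encodes calretinin and Cntn2 encodes a cell adhesion protein of growing axons. Proneural bHLH factors bind E-boxes, short motifs with a shared core, and the form known for neurogenic factors is CAGATG, which reads as CATCTG on the opposite strand. Of the 8 marker genes, 6 had a promoter sequence in the RefSeq table (GRCm38.p6, 250 bases before to 50 after the start site), and 3 of these held the motif. It stood in 17.2% of the 32851 promoters of this length. The 3 marker promoters that hold it are printed because they show where the E-box lies next to the start site, with the motif in capitals on the strand of the gene.
Nhlh1: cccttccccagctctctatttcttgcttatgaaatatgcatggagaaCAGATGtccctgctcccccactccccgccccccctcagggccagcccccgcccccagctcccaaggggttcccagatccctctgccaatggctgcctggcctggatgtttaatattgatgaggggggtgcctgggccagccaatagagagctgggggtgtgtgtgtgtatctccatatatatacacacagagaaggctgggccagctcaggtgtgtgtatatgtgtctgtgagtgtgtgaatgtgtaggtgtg
Prdm8: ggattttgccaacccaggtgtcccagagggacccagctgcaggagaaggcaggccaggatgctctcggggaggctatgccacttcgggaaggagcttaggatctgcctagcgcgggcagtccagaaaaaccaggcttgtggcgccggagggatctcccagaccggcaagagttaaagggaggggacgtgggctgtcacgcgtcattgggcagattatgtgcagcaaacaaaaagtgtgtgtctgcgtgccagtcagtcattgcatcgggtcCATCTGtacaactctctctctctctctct
Neurod2: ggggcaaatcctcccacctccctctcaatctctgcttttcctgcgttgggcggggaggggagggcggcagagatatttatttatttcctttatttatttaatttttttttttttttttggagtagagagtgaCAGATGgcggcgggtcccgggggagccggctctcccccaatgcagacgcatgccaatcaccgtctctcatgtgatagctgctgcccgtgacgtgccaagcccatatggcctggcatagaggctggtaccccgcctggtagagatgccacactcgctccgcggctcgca
These lie at chr1:172057547-172057846 (minus strand), chr5:98180619-98180918 (plus strand) and chr11:98329596-98329895 (minus strand). The first base of the motif stood at -203 from the start site in Nhlh1, at 21 in Prdm8 and at -118 in Neurod2. The windows of Cntn2, Neurod1 and Tac2 did not hold these letters. Among 8 promoters of the maturity genes, 1 held the motif. The matches are descriptions of sequence, and binding was not measured here.

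The gate took 2285 of 10997 wild-type cells (20.8%, exact binomial 95% interval 20.0 to 21.5), 912 of 6685 Larp7f/f;nestin-Cre cells (13.6%, 12.8 to 14.5) and 973 of 6531 Larp7f/f;Emx1-Cre cells (14.9%, 14.0 to 15.8). Depth was lowest where the share was highest. Gated cells had a median of 1657, 3183 and 3634 UMIs in the wild-type, Larp7f/f;nestin-Cre and Larp7f/f;Emx1-Cre libraries, and 44.9%, 13.0% and 10.3% of them held fewer than 1500 UMIs. When every cell was thinned to 1500 UMIs, which left out 4785, 597 and 439 shallower cells, the shares were 24.5%, 24.7% and 26.3%, and the wild-type library no longer had the highest share. No barcode of a gated cell was shared between libraries.

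The label was checked against marker genes of other cell types, and much of the wild-type gate did not carry the profile of a neuroblast. Per 10000 UMIs, the median gated cell held 106 UMIs of 79 genes of other classes (glia, microglia, vessels, blood and others) in the wild-type library, against 15.7 and 17.4 in the Larp7f/f;nestin-Cre and Larp7f/f;Emx1-Cre libraries. It held 52.8, 89.7 and 90.3 UMIs of 15 neurite genes. Summed over the gated cells, haemoglobin RNA made up 38.6, 9.06 and 11.9 UMIs per 10000 and astrocyte markers 36.6, 27.7 and 24.7, while endothelial markers made up 2.06, 0.568 and 4.86. Cajal-Retzius markers were highest in the Larp7f/f;nestin-Cre gate, at 1.97, 4.84 and 2.18. UMIs of the gate markers also appeared in cells of other types. Of 760 wild-type microglia (3 or more of 6 microglial genes), 54.1% held a UMI of Igfbpl1 and 115 cells (15.1%) passed the gate, against 27 of 505 (5.35%) and 15 of 284 (5.28%) in the mutant libraries. Endothelial cells passed at 11.2%, 2.27% and 28.7% (22 of 196, 1 of 44 and 51 of 178).

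The gated cells were therefore also described through those in which neurite genes exceeded the genes of other classes by more than 2 times and fewer than 2 of 7 Cajal-Retzius genes were detected. This subset was chosen after the values were seen, and its 15 neurite and 79 other genes are not read as results. It held 729 of the wild-type gated cells (31.9%), 703 of the Larp7f/f;nestin-Cre cells (77.1%) and 735 of the Larp7f/f;Emx1-Cre cells (75.5%), 2167 in all, and is called neurite-rich. As a share of all cells this was 6.63% (6.17 to 7.11), 10.5% (9.79 to 11.3) and 11.3% (10.5 to 12.0) in the wild-type, Larp7f/f;nestin-Cre and Larp7f/f;Emx1-Cre libraries. The wild-type library thus had the lowest share of neurite-rich cells and the highest share of gated cells, and the intervals of the mutant libraries overlapped. With every cell thinned to 1500 UMIs, which left out 4785, 597 and 439 shallower cells, the neurite-rich share of all cells was 14.97%, 20.6% and 21.0%. Within the gate of thinned cells, 930 of 1524, 1255 of 1505 and 1277 of 1604 cells were neurite-rich. The contrast between the wild-type and mutant gates was thus smaller at equal depth. The neurite-rich cells were matched in depth more closely than the gate, with medians of 3056, 3067 and 3483 UMIs. The choice itself lowered the other-class RNA. Haemoglobin stood at 1.37, 0.464 and 0.551 UMIs per 10000 in the neurite-rich cells. The summed astrocyte markers were at 5.20, 4.60 and 5.05, and none of the 15 microglial markers exceeded 10 CPM (UMIs of a gene scaled to a common total of summed UMIs) in any library.

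**Figure D1:**
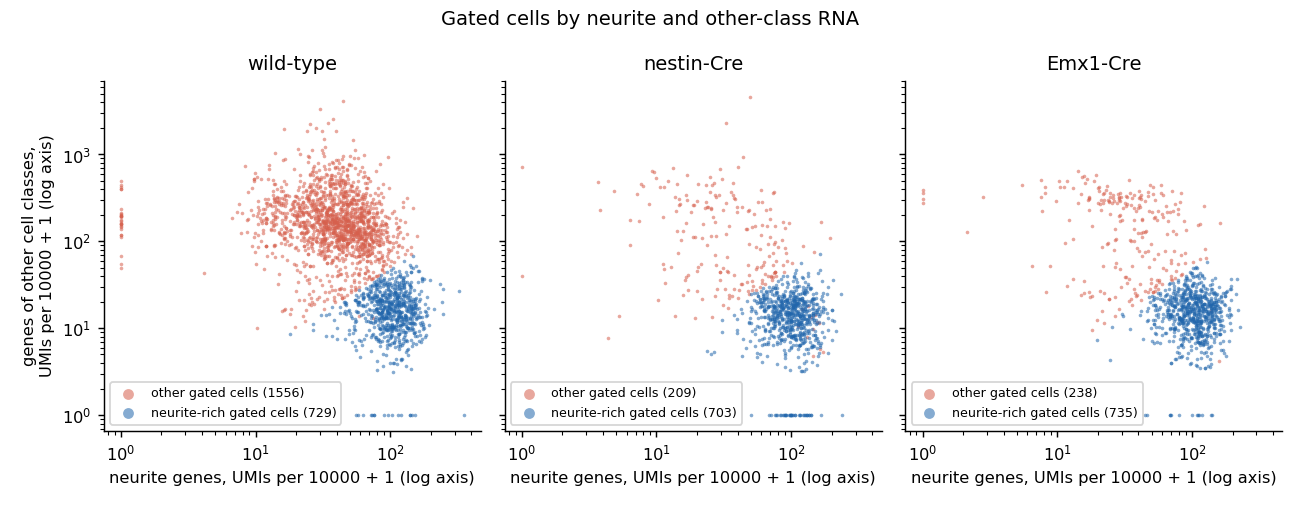
Each point is a gated cell, with UMIs of 15 neurite genes per 10000 (plus 1, log axis) on the horizontal axis and UMIs of 79 genes of other classes per 10000 (plus 1, log axis) on the vertical axis, in 1 panel per library. The wild-type panel holds 1556 cells outside the neurite-rich subset (red) and 729 inside it (blue), whereas the mutant panels hold 209 and 238 outside and 703 and 735 inside. Cells are shown at the depth as sequenced, which was lower in the wild-type gate.

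The rule's thresholds cut through this structure. Among cells with exactly 3 markers, just inside the gate, 11.4%, 51.6% and 42.9% were neurite-rich in the wild-type, Larp7f/f;nestin-Cre and Larp7f/f;Emx1-Cre libraries. With 2 markers, just outside, the shares were 2.75%, 11.7% and 13.1%, and with 5 or more markers they were 70.6%, 89.1% and 87.5%. The maturity limit was also crossed by such cells. Cells with 1 maturity gene (inside) were neurite-rich in 47.6%, 79.9% and 80.1% of cases, and cells with 2 (outside) in 73.0%, 84.3% and 84.6%.

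Broad markers of the lineage were detected more often in the neurite-rich cells than in microglia. Sox11, a factor of newborn neurons, was detected in 98.6%, 98.7% and 99.6% of them, against 62.1%, 39.8% and 35.2% of microglia, which should lack it. Prox1, the factor that specifies granule neurons, was detected in 66.5% (95% interval 63.0 to 70.0), 67.9% (64.3 to 71.3) and 72.5% (69.1 to 75.7), against 24.9%, 25.5% and 30.6% of microglia. The microglia had medians of 2055, 3289 and 3433 UMIs per cell, and the neurite-rich cells 3056, 3067 and 3483. Neither gene was used by the gate or the subset. Of all gated cells, 94.4%, 95.8% and 98.3% held Sox11 and 43.3%, 64.6% and 69.6% held Prox1, so Sox11 hardly set the subset apart within the gate. Prox1 was detected in 67.5%, 69.7% and 67.0% of the neurite-rich Eomes-positive cells described below. In the neurite-rich later cells described below it was detected in 85.7%, 92.2% and 91.8%. The check is thus one of lineage and not of stage. Dcx, the microtubule-binding protein of migrating neuroblasts, is one of the genes that chose the subset, the gate left out cells with Gad1 or Gad2, and glial genes were used by the subset, so none of these checks the label. The remaining 1556, 209 and 238 gated cells are called by the gate alone. Per 10000 UMIs these held 1.96, 11.2 and 2.38 of Cajal-Retzius, 60.8, 82.7 and 68.3 of astrocyte and 12.5, 21.3 and 10.6 of microglial and macrophage markers. Their haemoglobin stood at 67.3, 29.5 and 37.2.

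The 8 markers differed widely in level among themselves. In the neurite-rich wild-type cells, Igfbpl1, which encodes an insulin-like growth factor binding protein-like protein, stood at 3386 CPM and had a UMI in 99.6% of cells. Calb2 followed at 1544 CPM in 89.4% of cells and Neurod1 at 1278 CPM in 93.0%. Tac2 stood at 627 CPM but in only 45.7% of cells, and Nhlh1 at 52.5 CPM in 13.6%. These are levels of 3′ tags, so they carry no gene length, and the markers are described only because the rule used them.

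Across genotypes the markers did not move together. Neurod1 stood at 1278 CPM in wild-type and at 1947 and 1938 CPM in the Larp7f/f;nestin-Cre and Larp7f/f;Emx1-Cre libraries, and Neurod2 at 307, 431 and 496. Igfbpl1 stood at 3386, 2725 and 2661 CPM and Tac2 at 627, 492 and 418. Cntn2 stood at 151, 197 and 190 CPM. Both mutant libraries were therefore above wild-type for the NeuroD factors and Cntn2 and below it for Igfbpl1 and Tac2, with no overlap of counting intervals. Prdm8 stood at 165, 118 and 150 CPM, below wild-type without overlap in Larp7f/f;nestin-Cre alone. Nhlh1, at 52.5, 61.4 and 70.9 CPM, overlapped in both. The rule used all 8 markers and the maturity genes, so their levels only describe the selected cells. Later granule neuron markers moved in the same cells, at 1.92, 3.25 and 3.08 summed UMIs per 10000, and cells without a maturity gene made up 63.5%, 51.5% and 50.6%. The part of stage within the subset in these differences was not tested. Calb2 was nearly level at 1544, 1605 and 1555 CPM.

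Neighbouring stages were built by changing 1 criterion of the gate each: the same gate with at least 1 Eomes UMI (Eomes-positive cells, 520, 610 and 576 neurite-rich cells) and the same gate with 2 or more maturity genes (later cells, 343, 1223 and 883). Within neurite-rich cells of the 3 stages, the early neuroblasts made up 45.8% of wild-type (43.3 to 48.3), 27.7% of Larp7f/f;nestin-Cre (26.0 to 29.5) and 33.5% of Larp7f/f;Emx1-Cre cells (31.5 to 35.5). There were 0.471, 1.74 and 1.20 later cells for each early neuroblast. The ratio depended on depth in size but kept its order when cells were thinned to 1500 UMIs, at 0.159, 0.571 and 0.351. With 1 library per genotype, genotype and dissection cannot be told apart for these proportions.

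The levels of Tac2, Nhlh1, Calb2, Neurod1 and Neurod2 ran in order through the stages in all 3 libraries. The counting intervals of early neuroblasts and later cells overlapped for Nhlh1 in wild-type, Calb2 in Larp7f/f;nestin-Cre and Neurod2 in Larp7f/f;Emx1-Cre. Tac2 was highest in Eomes-positive cells, at 1137, 1390 and 1010 CPM in the wild-type, Larp7f/f;nestin-Cre and Larp7f/f;Emx1-Cre libraries, and lowest in later cells, at 213, 168 and 183 CPM. Nhlh1 declined likewise, from 87.8, 88.1 and 103 CPM to 34.7, 32.0 and 40.5. Calb2 ran the other way, from 796, 736 and 784 CPM in Eomes-positive to 2257, 1653 and 1873 CPM in later cells, as did Neurod2, from 159, 216 and 257 CPM to 396, 480 and 503. Neurod1 rose too, from 1130, 1619 and 1534 CPM to 1447, 2364 and 2261, with no overlap of intervals between stages in any library. Cntn2 was highest in the early neuroblasts in each library, at 151, 197 and 190 CPM, although its wild-type counting interval overlapped that of later cells.

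**Figure D2:**
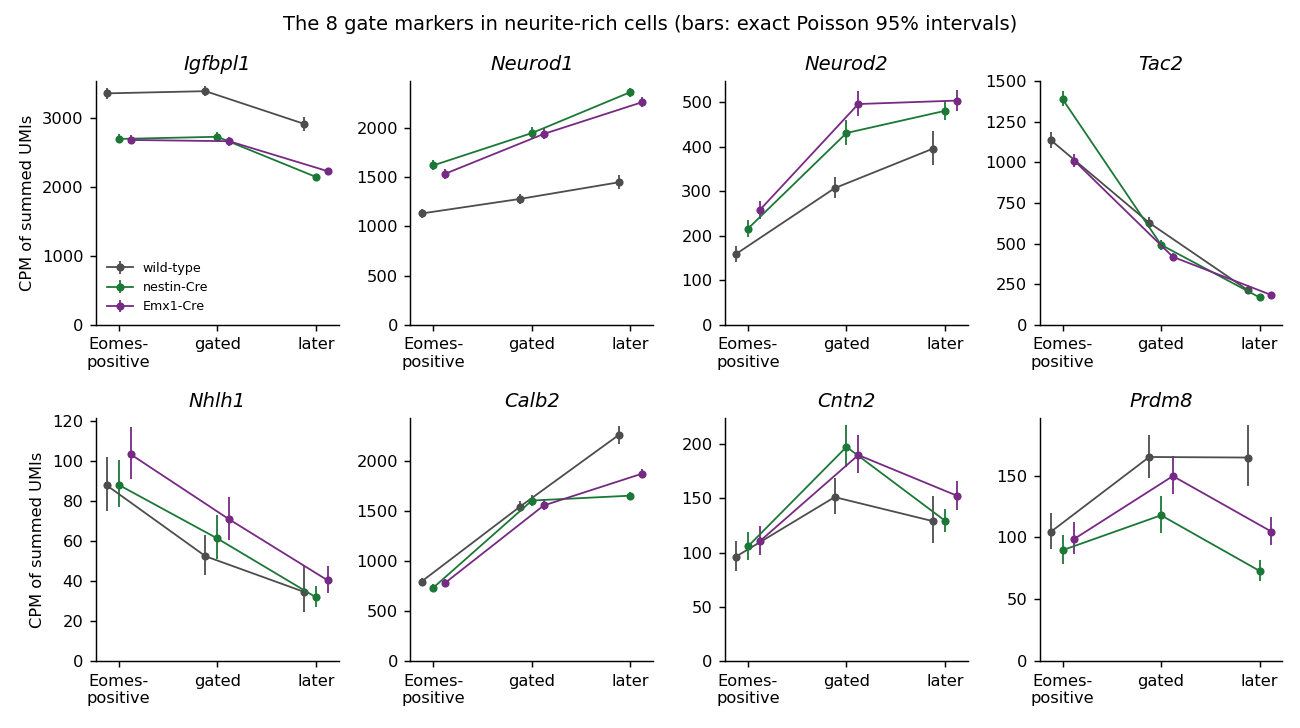
CPM of summed UMIs (vertical axis, from 0) of each of the 8 gate markers in neurite-rich Eomes-positive, gated and later cells (horizontal axis), with 1 line per library and exact Poisson 95% intervals as bars. Tac2 falls from 1137, 1390 and 1010 to 213, 168 and 183 CPM through the stages, Calb2 rises, and Neurod1 lies higher in both mutant libraries than in wild-type at every stage.

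Beyond the rule's own genes, the early neuroblasts were intermediate between the neighbouring stages more than distinct from them. Of 7389 genes with at least 100 UMIs, 135 (1.83%) were at least 1.5-fold above Eomes-positive cells in all 3 libraries and 99 (1.34%) at least 1.5-fold below. Against later cells, 107 (1.45%) were above and 64 (0.866%) below. A single gene, Cryab, which encodes the small heat shock protein alpha-B-crystallin, was past 1.5-fold above both neighbours in every library. It stood at 12.1, 19.3 and 23.9 CPM in early neuroblasts, at 7.07, 11.6 and 9.48 CPM in Eomes-positive cells and at 6.40, 8.70 and 13.4 CPM in later cells. These levels are low, and the choice did not require counting intervals to be apart. In wild-type the interval of Cryab in early neuroblasts overlapped those of both neighbours.

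The other genes ranked highest by their smallest ratio over both neighbours peaked only shallowly. They were Ptgr1, Spats2l, Ifi203, Tbata, Farp1, Luzp2, Tmco3, Pcdh20 and Ptn. Ptn encodes the secreted growth factor pleiotrophin and stood at 133, 100.04 and 113 CPM in early neuroblasts, against 103, 82.9 and 93.5 CPM in Eomes-positive cells and 97.8, 67.1 and 89.3 CPM in later cells. Pcdh20, a protocadherin, stood at 17.7, 19.8 and 26.8 CPM, against 4.54, 11.2 and 14.0 CPM and 14.6, 16.3 and 19.9 CPM. Taken over the whole gate the same ranking was led by glial and immune genes, among them Lpcat2, Ltc4s and Cd53, and the part of the other-class RNA in that ranking was not tested.

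Most genes of dividing and progenitor cells that passed 1.5-fold declined through the stages. Among dividing cell genes, 17 of 37 were measured at 100 or more UMIs. Of these, 12 were at least 1.5-fold below Eomes-positive cells in all 3 libraries and 8 were above later cells (medians of the log2 ratio -1.71 and 1.29). The shares of all genes were 1.34% and 1.45%. Hmgb2, a chromatin protein of dividing cells, stood at 759, 892 and 709 CPM in Eomes-positive cells, at 287, 245 and 193 CPM in early neuroblasts and at 68.5, 123 and 109 CPM in later cells. Of 9 measured intermediate progenitor markers (11 in the list), 5 lay below Eomes-positive cells and above later cells in all 3 libraries. Among them were Mfap4, Neurod4, Mfng and Neurog2, the proneural factor that acts upstream of Neurod1. In the same list 1 gene lay at least 1.5-fold above Eomes-positive cells and 1 below later cells in all 3 libraries.

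Synapse genes that passed 1.5-fold ran the opposite way, whereas other neuronal lists did not run one way. Of 21 measured synapse and excitability genes (31 in the list), 5 were above Eomes-positive cells in all 3 libraries (among them Gria1, Gria2, Grin1 and Kcnq3) and 3 were below later cells (among them Syt1 and Gria1). Gria2, a subunit of AMPA receptors, stood at 929, 857 and 881 CPM in the early neuroblasts, between 599.6, 532 and 545 CPM in Eomes-positive cells and 1214, 1121 and 1055 CPM in later cells. Prox1 rose through the stages from 321, 394 and 363 through 474, 593 and 628 to 860, 1100.4 and 1061 CPM. Of 28 measured neuronal transcription factors, none was above and 2 were below Eomes-positive cells in all 3 libraries, and 3 were above and 2 below later cells. Of 19 axon guidance and adhesion genes, 3 were above and 3 below Eomes-positive cells, and 3 were above and 2 below later cells. Of 14 neurite genes that the subset did not use, none passed in either direction. Among all genes 1.83% were above and 1.34% below Eomes-positive cells, and 1.45% above and 0.866% below later cells. The semaphorin receptor Nrp1 stood at 73.2, 118 and 121 CPM in Eomes-positive cells and at 165, 271 and 247 CPM in the early neuroblasts. Of 14 measured genes of the 7SK complex, P-TEFb and pausing, none passed 1.5-fold in all 3 libraries in either direction, with medians of the log2 ratio of -0.03 and 0.06.

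Larp7 itself was lower in both mutant libraries. In neurite-rich cells it stood at 57.2 CPM in wild-type (95% Poisson interval 47.5 to 68.2), at 12.1 CPM in Larp7f/f;nestin-Cre (7.82 to 17.8) and at 12.2 CPM in Larp7f/f;Emx1-Cre cells (8.20 to 17.4). The log2 ratios were -2.24 and -2.23. UMIs counted at the 3′ end do not read the deleted exon, so the level is no direct check of the deletion. Sex-linked RNA also differed between the pooled litters, with Xist at 1094, 1106 and 606 CPM and the Y-linked Ddx3y at 10.7, 23.7 and 36.5 CPM, and the part of sex in any difference was not tested. Beside the conflict of driver labels, Emx1 RNA stood at 248, 305 and 171 CPM.

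In the whole gate, 9327 genes had at least 100 UMIs over the 3 libraries. At least 1.5-fold above wild-type were 714 genes (7.66%) in the Larp7f/f;nestin-Cre library and 666 (7.14%) in the Larp7f/f;Emx1-Cre library, and at least 1.5-fold below were 783 (8.39%) and 487 (5.22%). The other-class RNA of the wild-type gate moved with these counts. All 4 measured haemoglobin genes were lower in both mutant libraries, and Ptgds, the prostaglandin D synthase of meningeal and glial cells, fell from 50.6 CPM to 5.10 and 5.87 CPM in the gate, whereas it stood at 2.79, 3.87 and 4.05 CPM in neurite-rich cells. Of 35 measured dividing cell genes in the gate, 22 and 25 were lower in the Larp7f/f;nestin-Cre and Larp7f/f;Emx1-Cre libraries, and 16.2%, 6.25% and 9.66% of gated cells held 3 or more of 8 mitotic genes. The part of other cell types in these differences was not tested.

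Ranked by the smaller of the ratios of both mutant libraries, the 10 largest rises in the whole gate were Crabp1, Lrrn2, Creb3l1, Slc8a1, Acsl1, Lynx1, U2af1l4, Jakmip3, Lgi1 and Rgs6. The 10 largest falls were Ptgds, Larp7, Kif2c, Hist1h2ab, Cxcl10, Knstrn, Cenpe, Hist1h2bc, Hist1h2ap and Nuf2. Kif2c, Knstrn, Cenpe and Nuf2 act at the mitotic spindle or kinetochore, Cxcl10 is an interferon-induced chemokine, and the Hist1 genes encode core histones. Crabp1, Creb3l1, Jakmip3, Larp7 and Hist1h2bc were also among the genes named in the neurite-rich cells.

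In the neurite-rich cells, 7430 genes had at least 100 UMIs. Of these, 584 (7.86%) were at least 1.5-fold higher and 615 (8.28%) at least 1.5-fold lower in the Larp7f/f;nestin-Cre library, and 559 (7.52%) higher and 264 (3.55%) lower in the Larp7f/f;Emx1-Cre library. The median log2 ratio of all these genes was -0.03 and 0.04. The 10 largest rises shared by both mutant libraries were Crabp1, Nrg1, Lmcd1, Creb3l1, Jakmip3, Trps1, Sgk1, Dlc1, Ppp1r10 and Stim1. The 10 largest falls were Larp7, Cdc20, Ube2c, Cdca3, Birc5, Fam173a, Cenpf, Snx32, Hist1h2bc and Haghl.

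Ppp1r10 was the most abundant of the genes named as higher. It encodes PNUTS, a regulatory subunit of protein phosphatase 1 in the nucleus, where it acts in transcription termination. It stood at 48.8 CPM in wild-type (39.9 to 59.1), at 164 CPM in Larp7f/f;nestin-Cre (147 to 182) and at 128 CPM in Larp7f/f;Emx1-Cre cells (114 to 143). These are log2 ratios of 1.75 (counting interval 1.43 to 2.08) and 1.39 (1.07 to 1.72).

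The other 9 named rises were of low abundance, at 5.58 to 12.5 CPM in wild-type. Crabp1, the cytoplasmic retinoic acid binding protein, stood at 5.58 CPM in wild-type (2.88 to 9.74) and at 23.2 CPM (17.1 to 30.8) and 25.5 CPM (19.6 to 32.7) in the mutant libraries. Nrg1, the ligand neuregulin-1 of ErbB receptors, stood at 6.51, 21.3 and 22.7 CPM. The glucocorticoid-regulated kinase Sgk1 stood at 7.43, 20.3 and 20.7 CPM and the developmental repressor Trps1 at 12.5, 38.7 and 34.5 CPM. Wild-type intervals did not overlap those of either mutant library for these genes, which the rule itself required. The sign of each of these 10 rises stayed positive under the other choices of the gate, with log2 ratios between 0.62 and 2.45 on the CPM scale.

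Among the falls, Snx32, Fam173a and Haghl stayed lower under the other choices of the gate, with log2 ratios between -2.22 and -0.98 on the CPM scale. Snx32, a sorting nexin, stood at 29.7 CPM in wild-type (22.9 to 38.0), at 6.77 CPM in Larp7f/f;nestin-Cre (3.70 to 11.4) and at 11.3 CPM in Larp7f/f;Emx1-Cre cells (7.54 to 16.4). Haghl stood at 77.1, 24.2 and 31.2 CPM and Fam173a at 36.7, 10.6 and 13.0 CPM. Hist1h2bc, a histone H2B gene, stood at 126, 49.3 and 36.1 CPM. Hist1h2bc was lower in both mutant libraries under those choices too.

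**Figure D3:**
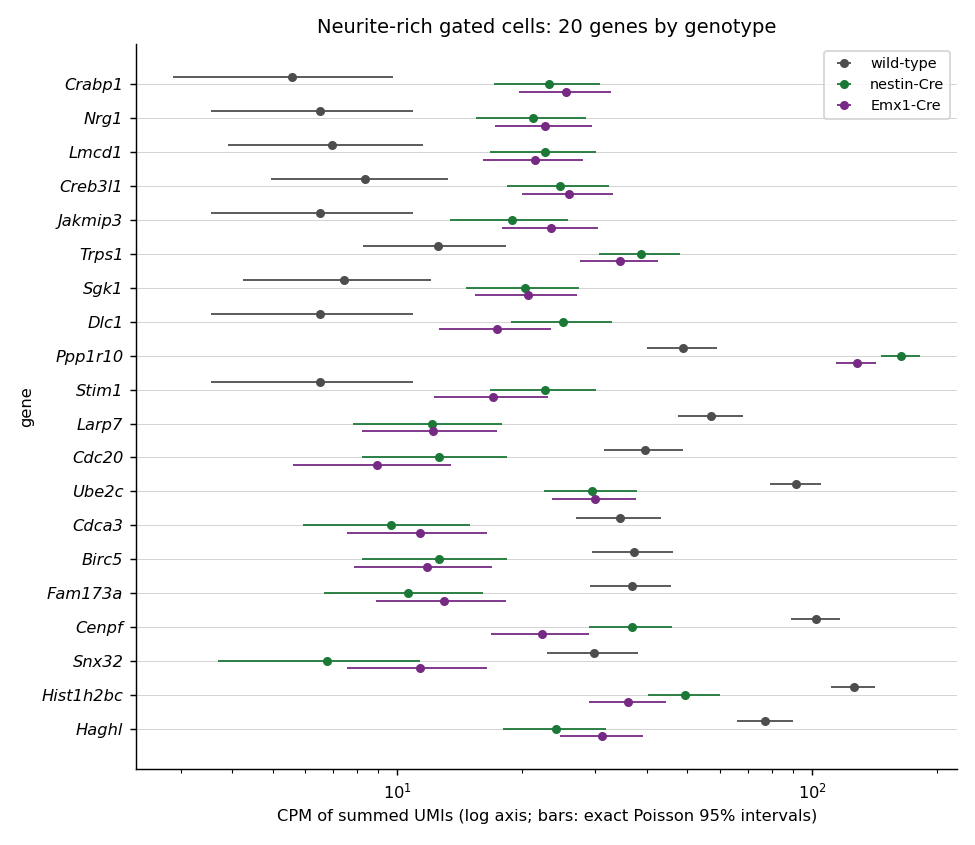
CPM of summed UMIs (log axis) of the 20 named genes in neurite-rich gated cells of the wild-type, Larp7f/f;nestin-Cre and Larp7f/f;Emx1-Cre libraries, with exact Poisson 95% intervals as bars. The 10 upper genes lie higher in both mutant libraries, led in level by Ppp1r10 at 48.8, 164 and 128 CPM, and the 10 lower genes lie lower, with Larp7 at 57.2, 12.1 and 12.2 CPM.

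The remaining named falls, Cdc20, Ube2c, Cdca3, Birc5 and Cenpf, act in mitosis. Of 17 measured dividing cell genes, 9 and 8 were at least 1.5-fold lower in the Larp7f/f;nestin-Cre and Larp7f/f;Emx1-Cre libraries (8.28% and 3.55% of all genes were). The medians were -0.68 and -0.57, and 1 and 0 of these genes were higher (7.86% and 7.52% of all genes were). Mitotic genes made up all 8 that were lower in both libraries, and the ninth in Larp7f/f;nestin-Cre was Mcm7 of the replication helicase, at 117, 73.0 and 91.2 CPM. Ube2c, a ubiquitin-conjugating enzyme of the anaphase-promoting complex, stood at 91.5, 29.5 and 30.0 CPM and the centromere protein Cenpf at 102.2, 36.7 and 22.3 CPM. Other genes of DNA synthesis did not move one way. Pcna stood at 37.2, 38.2 and 40.5 CPM and Mcm6 at 43.7, 39.1 and 43.0 CPM, while Gins2 was the gene higher in Larp7f/f;nestin-Cre, at 11.2, 19.8 and 14.6 CPM.

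Cells with 3 or more of 8 mitotic genes numbered 29 of 729 in wild-type (3.98%, 2.68 to 5.66), 13 of 703 in Larp7f/f;nestin-Cre (1.85%, 0.988 to 3.14) and 16 of 735 in Larp7f/f;Emx1-Cre (2.18%, 1.25 to 3.51), so their intervals overlapped. Without the deepest 5% of cells, Top2a, which encodes the DNA topoisomerase of dividing cells, had log2 ratios of 1.19 and 1.15 in place of -1.14 and -1.20, and Mki67 of 0.096 and 0.53 in place of -1.23 and -0.78. Tpx2 reversed in both libraries and Cenpf in Larp7f/f;nestin-Cre, whereas Cdc20, Ube2c, Cdca3, Birc5 and Cenpa stayed lower in both under the other choices of the gate, with log2 ratios between -3.36 and -0.12 on the CPM scale. The share of cells with 3 or more of all 37 dividing cell genes was 25.1%, 25.7% and 28.2%. No doublets were removed here, and their part was not tested.

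Transcription factors and cytoskeletal genes were close to the wild-type level. Of 28 measured neuronal transcription factors (30 in the list), 2 were higher and 1 lower in the Larp7f/f;nestin-Cre library and 1 was higher in the Larp7f/f;Emx1-Cre library, with medians of 0.10 and 0.14, which is near the background shares above. Neurod4, a bHLH factor of progenitors, was past 1.5-fold in both, at 19.5, 36.7 and 30.0 CPM. Sox11, Sox4 and Tcf4, abundant neurogenic factors of the list, had log2 ratios between 0.01 and 0.24. Of 14 measured neurite and migration genes that the subset did not use, none passed 1.5-fold in either mutant library. Prox1 stood at 474, 593 and 628 CPM, a log2 ratio of 0.32 (0.20 to 0.44) and 0.41 (0.29 to 0.52).

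The axon guidance and adhesion genes that passed 1.5-fold were all higher in the mutant libraries. Of 19 measured genes (30 in the list), 5 and 4 were at least 1.5-fold higher (7.86% and 7.52% of all genes were) and none was lower, with medians of 0.38 and 0.42, and 18 and 17 had a ratio above 0. Nrp2, a receptor for class 3 semaphorins, stood at 30.7 CPM in wild-type (23.7 to 39.0), at 71.0 CPM in Larp7f/f;nestin-Cre (60.02 to 83.5) and at 51.5 CPM in Larp7f/f;Emx1-Cre cells (42.9 to 61.2). The transmembrane semaphorin Sema6d stood at 135, 226 and 214 CPM and the ephrin receptor Epha5 at 27.4, 48.3 and 46.6 CPM. In the whole gate, 8 and 9 of 22 measured genes of the list were higher and none was lower. The later granule neuron markers, a list that shares Nrp1 with this one, were also higher in these cells, with 2 and 1 of 2 measured genes past 1.5-fold and summed levels of 1.92, 3.25 and 3.08 UMIs per 10000, and their part was not tested.

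Synapse genes were close to wild-type in the neurite-rich cells. Of 21 measured genes, 2 were higher in each mutant library, and 1 was lower in the Larp7f/f;Emx1-Cre library, with medians of 0.10 and -0.01. Among all genes 7.86% and 7.52% were higher and 8.28% and 3.55% lower. Kcnq3, a subunit of the M-type potassium channel, was past 1.5-fold in both, at 52.0, 96.2 and 80.3 CPM. Its log2 ratios ranged over the alternative choices of the gate between 0.72 and 1.08 in the Larp7f/f;nestin-Cre library and between 0.20 and 0.69 in the Larp7f/f;Emx1-Cre library. Among 8 measured genes of hippocampal field identity, the POU factor Pou3f2 stood at 23.7, 52.7 and 42.6 CPM, and Meis2 was high only in the Larp7f/f;nestin-Cre library, at 16.3, 40.6 and 16.6 CPM, a difference between the mutant libraries that was not tested.

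Among the partners of Larp7, Hexim1 was the gene past 1.5-fold in both mutant libraries. Hexim1, the inhibitor of P-TEFb that 7SK RNA presents to the kinase, stood at 20.4 CPM in wild-type (14.9 to 27.4), at 50.7 CPM in Larp7f/f;nestin-Cre (41.5 to 61.4) and at 44.6 CPM in Larp7f/f;Emx1-Cre cells (36.6 to 53.7). These were log2 ratios of 1.31 and 1.12, and they ranged from 1.03 to 1.36 over the other choices of the gate. In the whole gate Hexim1 stood at 25.3, 55.8 and 43.3 CPM. Cdk9, the kinase of P-TEFb, stood at 59.5, 36.2 and 47.0 CPM and its cyclin Ccnt1 at 113, 101 and 106 CPM. Of the 14 measured genes, 2 were higher (Hexim1 and Mepce) and 2 lower (Larp7 itself and Cdk9) in the Larp7f/f;nestin-Cre library. In the Larp7f/f;Emx1-Cre library 1 was higher (Hexim1) and 2 lower (Larp7 and Nelfe). The shares of all genes in these libraries were 7.86% and 7.52% higher and 8.28% and 3.55% lower. Mepce, the enzyme that caps 7SK RNA, stood at 27.4, 42.0 and 27.6 CPM and Nelfe, a subunit of the pausing factor NELF, at 45.5, 33.3 and 28.0 CPM.

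Among 9 measured p53 target genes (18 in the list), 2 were higher in the Larp7f/f;nestin-Cre and 1 in the Larp7f/f;Emx1-Cre library (7.86% and 7.52% of all genes were). Plk2, a polo-like kinase of neurons that p53 also induces, was past 1.5-fold in both, at 47.9 CPM in wild-type (39.1 to 58.0), 99.1 CPM (86.0 to 114) and 93.2 CPM (81.6 to 106). The apoptosis genes Bax and Bbc3 stood at 291, 256 and 266 CPM and at 47.4, 62.8 and 70.1 CPM. Plk2 was already higher in later than in Eomes-positive cells in each library, at 25.7, 43.9 and 48.2 CPM in Eomes-positive and 58.5, 151 and 126 CPM in later cells.

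Some immediate early genes, which dissociation induces, set the mutant libraries apart from each other. Jun stood at 416, 201 and 545 CPM and Egr1 at 384, 226 and 462 CPM. Fos, at 341, 399 and 666 CPM, was below wild-type in neither mutant library. Ier3 was at least 1.5-fold higher in both, at 6.51, 14.0 and 24.3 CPM. Of 11 measured genes, 1 was higher and 3 lower in the Larp7f/f;nestin-Cre library (7.86% and 8.28% of all genes were). In the Larp7f/f;Emx1-Cre library 4 were higher and none lower (7.52% and 3.55% of all genes were). Gadd45g, a stress-responsive gene that also accompanies cell cycle exit, had the shape of Jun and Egr1, at 555, 249 and 612 CPM. The cyclin-dependent kinase inhibitor Cdkn1b, the p27 protein of cell cycle exit, did not share it and stood at 171, 254 and 246 CPM. Of 12 measured genes of cell cycle exit and arrest, 1 was higher and 1 lower in the Larp7f/f;nestin-Cre library and 2 were higher in the Larp7f/f;Emx1-Cre library. Of 6 measured Notch and Hes genes, 1 was lower in the former and 1 higher in the latter. Beside the shares of all genes given above, such counts of 1 or 2 are not read as results. The difference between the mutant libraries and the part of dissociation in these levels were not tested.

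**Figure D4:**
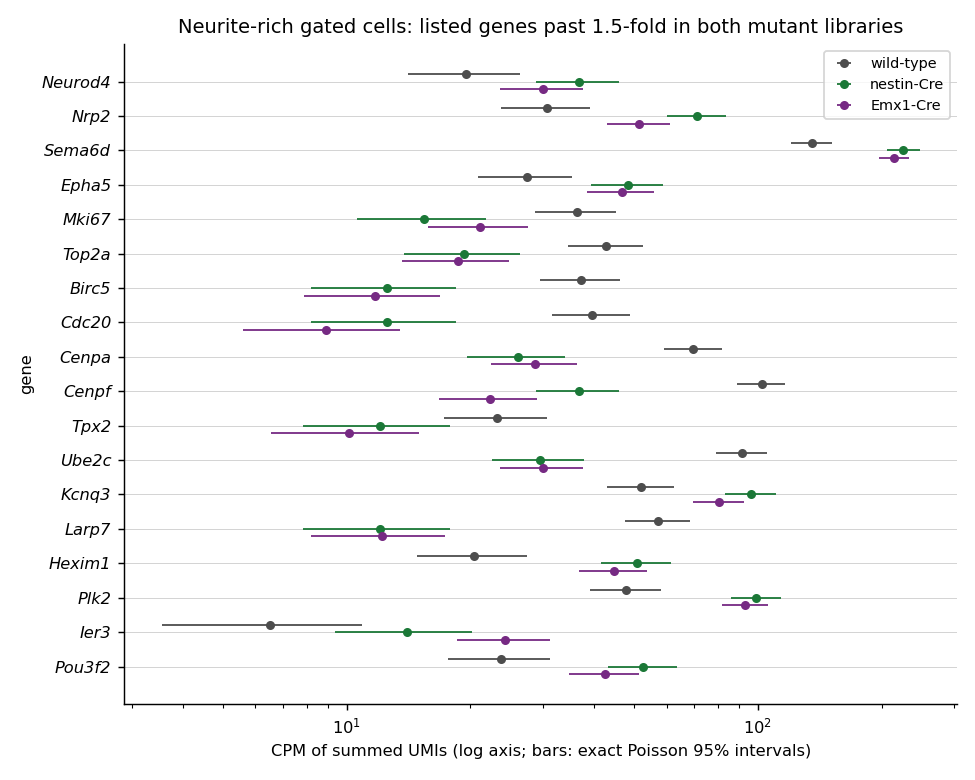
CPM of summed UMIs (log axis) in neurite-rich gated cells of the 3 libraries for the listed genes that passed 1.5-fold in the same direction in both mutant libraries, with exact Poisson 95% intervals as bars. The 8 mitotic genes and Larp7 lie lower in the mutant libraries, and the other 9 genes, among them Hexim1 at 20.4, 50.7 and 44.6 CPM, lie higher.

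Neurospheres gave the only test with replicates. The 5 libraries held 59821311 to 62474602 counts. In such bulk RNA, fewer cells of a type and less RNA per cell cannot be told apart, and the cultures held few early neuroblasts by their markers, since 4 of the 8 gate markers passed the filter on low counts and Igfbpl1 stood at 3.82 to 5.41 CPM in all 5 libraries. Of 17753 genes tested with edgeR's quasi-likelihood test, 6 (0.0338%) had an adjusted p under 0.05, 3 higher (0.0169%) and 3 lower (0.0169%) in the knockout. At an unadjusted p under 0.05 there were 3846. DESeq2 called 1785 genes on the same libraries.

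Larp7 was 1 of the 3 genes lower. It stood at 42.8 and 35.0 CPM in the wild-type libraries and at 4.17, 6.35 and 4.39 CPM in the knockout libraries, a log2 fold change of -2.97 (SE 0.21, adjusted p = 0.0198 in edgeR). All 3 knockout values lay below both wild-type values. Without knockout library 1 or 3 the fold change stayed at -2.85 and -2.88 and the call was lost (edgeR adjusted p = 0.148 and 0.195). It was the single called gene in the lists, and none of the 4 gate markers tested was called.

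The genes that differed in the early neuroblasts were read in the same test, in which no other one passed. Of the 10 named rises 9 were tested, and 7 had a fold change above 0 and 2 below (Jakmip3 at -0.03 and Trps1 at -0.15). Of the 10 named falls, 4 were below 0 and 6 above. Of 8 tested listed genes that were higher in both mutant libraries, 5 were above 0, and Sema6d, Epha5 and Kcnq3 were at -0.18, -0.26 and -0.18. Stim1, among the 7, was at 0.03. Hexim1 stood at 69.9 and 85.2 CPM in wild-type and at 136, 130 and 123 CPM in knockout neurospheres, a log2 fold change of 0.74 (edgeR adjusted p = 0.0857). Ppp1r10 stood at 108 and 107 CPM and at 154, 169 and 143 CPM (0.53, edgeR adjusted p = 0.0933). Plk2 stood at 78.4 and 99.1 CPM and at 128, 120 and 121 CPM (0.47, edgeR adjusted p = 0.107). For these 3 genes every knockout library lay above both wild-type libraries, but none passed the threshold in edgeR, whereas DESeq2 gave adjusted p-values of 2.3e-07, 2.2e-05 and 0.00425. Without wild-type library 1 the edgeR adjusted p-values were 0.0131, 0.0328 and 0.0466, but a single wild-type library then remained, which was assumed to vary like the knockout libraries, so the spread between the wild-type libraries did not enter. In the fits without any other single library each stayed above 0.05.

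Among the named falls, Snx32 stood at 29.1 and 39.1 CPM in wild-type and at 15.2, 17.6 and 17.8 CPM in knockout neurospheres (log2 fold change -1.02, edgeR adjusted p = 0.0917), and Haghl at 58.7 and 58.2 CPM and at 41.2, 42.0 and 38.6 CPM (-0.53, edgeR adjusted p = 0.0933). Hist1h2bc, listed there under its newer symbol H2bc4, stood at 31.2 and 28.3 CPM and at 19.2, 16.0 and 16.5 CPM (-0.79, edgeR adjusted p = 0.0917). Fam173a, listed there under its newer symbol Antkmt, had the opposite sign, at 73.0 and 77.5 CPM against 106, 92.5 and 92.7 CPM (0.37, edgeR adjusted p = 0.112). Mitotic genes had the opposite sign as well. Mki67 stood at 398 and 199 CPM in wild-type and at 520, 521 and 494 CPM in knockout neurospheres, with the wild-type libraries far apart from each other (log2 fold change 0.78, edgeR adjusted p = 0.175). Without wild-type library 1 its fold change was 1.36 (edgeR adjusted p = 0.00219) and without wild-type library 2 it was 0.36 (0.215). Without wild-type library 1 Snx32, Haghl and Hist1h2bc passed too (-1.21, -0.52 and -0.71, edgeR adjusted p = 0.00627, 0.0288 and 0.0317), and without any other single library they did not. The fits with 1 wild-type library took their spread from the knockout libraries alone. Dcx stood at 97.0 and 106 CPM and at 99.1, 107 and 111 CPM, so its groups overlapped.

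**Figure D5:**
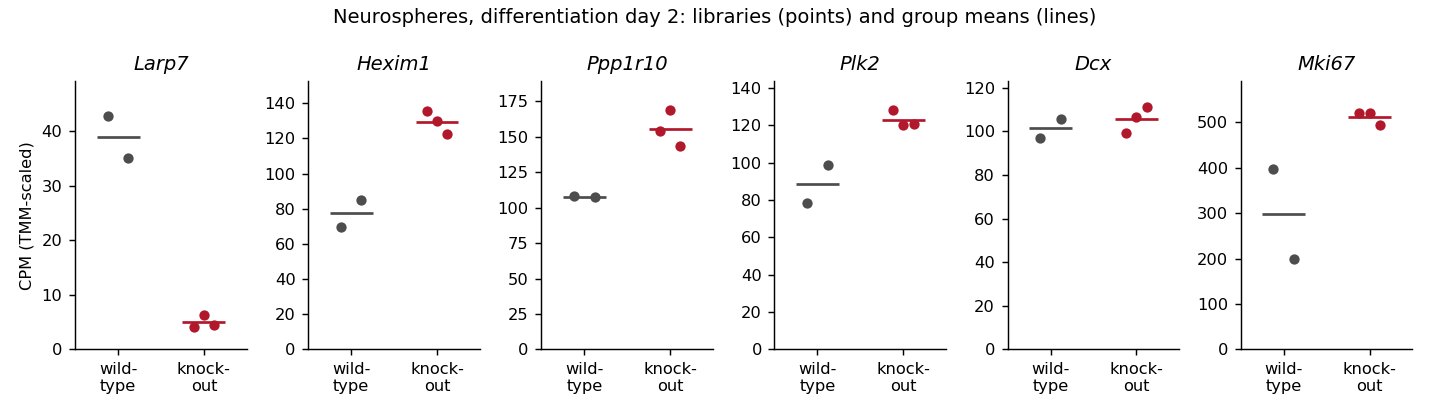
CPM (TMM-scaled, axis from 0) of 6 genes in the 2 wild-type and 3 Larp7 knockout neurosphere libraries at day 2 of differentiation, with points for libraries and lines for group means. Larp7 lies at 42.8 and 35.0 CPM in wild-type and at 4.17 to 6.35 CPM in knockout libraries, Hexim1, Ppp1r10 and Plk2 lie higher in every knockout library, and Dcx overlaps.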

How the data were processed

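For the single cells the authors deposited raw UMI count matrices, genes by barcodes, made from 10x Genomics 3′ libraries. The file headers name Cell Ranger 4.0.0, while the study's methods name another release. For the neurospheres the authors deposited a table of raw read counts by gene ID, with Minimap2 named as aligner in the study's methods and featureCounts and mm10 in the submitters' processing notes. No source used here gives how strand and shared reads were treated. Of its columns, 5 match no sample in the labels and were not used, and 39373 of 40814 gene IDs matched a symbol (RefSeq table of GRCm38.p6).

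The wild-type, Larp7f/f;nestin-Cre and Larp7f/f;Emx1-Cre libraries held 28918491, 26689878 and 28537738 UMIs, and 10997, 6685 and 6531 of 12876, 7177 and 6821 barcodes passed the limits on genes and mitochondrial UMIs. No doublet caller was run. UMIs were summed over the selected cells of each library and divided to CPM (Python 3.11.15, numpy 2.4.6, scipy 1.17.1), with exact Poisson or binomial 95% intervals that cover counting error only. Genes needed 100 UMIs over the 3 libraries, and a difference was described from 1.5-fold. Because each genotype had 1 library, no test was made between genotypes or stages, and the stages differ by the criterion that defines them. The members, lists and tests were chosen with earlier results of these data known, and the neurite-rich subset was added after the data were seen.

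Named genes were the 8 gate markers, the 10 largest rises and the 10 largest falls by the smaller of both mutant log2 ratios with wild-type intervals apart from both, the 10 genes with the largest smallest ratio over both neighbouring stages, and list members that passed 1.5-fold in both mutants or describe the cells. Gate genes, unnamed gene models, mitochondrial, haemoglobin and sex-chromosome genes were left out of these choices. A few further list members, such as Gadd45g, Meis2, Jun and Plk2 across stages, were named after their values were seen.

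Neurosphere counts were tested with edgeR 4.0.16 in R 4.3.3 (TMM, filterByExpr, quasi-likelihood test, Benjamini-Hochberg over all genes tested), with DESeq2 1.42.0 as an alternative. The labels do not say whether the cultures came from separate animals, so p-values measure only the spread between these libraries. Both procedures were tested on simulated data that varied less than the libraries. The simulated neurosphere counts had a dispersion below the common value of 0.0376 in the libraries, and the simulated single-cell counts held counting error only. How either procedure performs at the real spread was not tested. Alternatives were thinned cells, other limits of the gate, other folds and UMI minimums, mean log-normalized values, another normalization, no filter, a replicate block and leaving out each library. ATAC-seq and CUT&Tag were not used here. Some members of the gene lists are counted with their list and not reported here by name.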

Additional observations from a re-analysis of the deposited data

Results flagged for a closer look

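In the gated cells the markers of vessels moved in opposite directions in the mutant libraries. The median log2 ratio of 7 measured endothelial markers was -2.90 in the Larp7f/f;nestin-Cre library, where all 7 were lower by at least 1.5-fold, and 0.97 in the Larp7f/f;Emx1-Cre library, where 6 were higher. For 5 measured mural and stromal markers the medians were -1.48 and 0.67. The difference between the mutant libraries was not tested. In the neurite-rich cells, whose choice used such genes, the summed endothelial markers stood at 0.330, 0.396 and 0.397 UMIs per 10000 in the wild-type, Larp7f/f;nestin-Cre and Larp7f/f;Emx1-Cre libraries.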

How the results depend on the processing

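The gate took 24.5%, 24.7% and 26.3% of cells (wild-type, Larp7f/f;nestin-Cre, Larp7f/f;Emx1-Cre) after thinning to 1500 UMIs, 10.3%, 9.90% and 12.0% with at least 4 markers, 15.7%, 7.26% and 7.96% with no maturity gene, and 18.9% of wild-type cells with more than 200 genes. Against the neighbouring stages over the whole gate, genes past 1.5-fold in all 3 libraries numbered 109 (above Eomes-positive), 63 (below Eomes-positive) and 77 (below later) after thinning, and 171, 132, 93 (above later) and 76 with at least 4 markers, where the gate as defined gave 355, 205, 219 and 122. Genes past the fold between genotypes numbered 390 and 250 in the gate (Larp7f/f;nestin-Cre, Larp7f/f;Emx1-Cre) and 235 and 129 in neurite-rich cells at 2-fold, 2653 and 2073 and 2392 and 1802 with a minimum of 30 UMIs, 607 and 454 and 341 and 204 with 300 UMIs, and 56 and 78 and 7 and 4 on mean log-normalized values, on which low genes move less. The neurite-rich count in the Larp7f/f;Emx1-Cre library was 534 with no maturity gene. Of the mitotic genes of the neurite-rich cells, Cenpf, Mki67, Top2a and Tpx2 reversed and Cdc20, Ube2c, Cdca3, Birc5 and Cenpa did not. Without the deepest 5% of cells the log2 ratios were 0.44 for Cenpf in Larp7f/f;nestin-Cre, 0.096 and 0.53 for Mki67, 1.19 and 1.15 for Top2a and 0.28 and 0.037 for Tpx2, and after thinning Top2a was at 0.22 in Larp7f/f;nestin-Cre. The cause was not tested. Of 528 log2 ratios of named and listed genes recomputed in neurite-rich cells, 409 stayed within the counting interval, 111 moved beyond it with the same sign and these 8 reversed.

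In neurospheres, 1785 genes were called by DESeq2 and 3 without the filter on low counts. Leaving out 1 library gave 0 to 1905 calls, with 1905 without wild-type library 1 (a fit with the spread of the knockout libraries alone), 1 without knockout library 1 and 0 without knockout library 3. With a replicate block on libraries 1 and 2 of each group 0 genes were called, and 0 in the same 4 libraries without the block. Deviations of same-numbered libraries had a correlation of 0.0498, so the shared numbers were not taken as pairs. The low number of calls and its dependence on single libraries limit what the neurospheres can say of the early neuroblasts, and depth limits the cells, in which genes under 100 UMIs were not described.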
